A study of Mus musculus with 10 samples.

Results

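The machinery that fuses vesicles with the plasma membrane and releases their content was examined in single cells of the mouse paraventricular hypothalamus (PVH). It was taken as 73 of the 48397 genes in the count table, those whose symbols belong to 12 families. These were the synaptotagmins (*Syt*, 17 genes), syntaxins (*Stx*, 15), VAMPs (*Vamp*, 7), syntaxin-binding proteins (*Stxbp*, 6), SNAP25 relatives (*Snap*, 4), complexins (*Cplx*, 4), Rab3 GTPases (4), RIM proteins (*Rims*, 4), Munc13 proteins (*Unc13*, 4), synapsins (*Syn*, 3), SV2 glycoproteins (*Sv2*, 3) and CAPS proteins (*Cadps*, 2). The members were picked by symbol.

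In neurons, a vesicle fuses when a SNARE protein on its membrane, a VAMP, zips together with a syntaxin and a SNAP25 relative on the target membrane. Munc18 proteins hold and guide the syntaxin, Rab3 and RIM proteins tether vesicles, and Munc13 and CAPS proteins prime them. Complexins act on the assembled SNAREs, and synaptotagmins such as *Syt1* on the vesicle sense calcium. PVH neurons use this machinery both for fast transmitter and for peptides in dense-core vesicles, and magnocellular oxytocin and vasopressin neurons release peptide into the blood and from their dendrites.

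The 10 samples were 96-well plates of hand-picked cells, all from male mice over 7 weeks old from a cross of *Agrp-IRES-Cre* with the tdTomato reporter *Ai9*, and no conditions were compared. Cre is driven from the *Agrp* gene, which is active in cells outside the PVH. The labels call the picked cells tdTomato positive, whereas the study's methods used the labelled axons to find the PVH boundary. The files held 706 cells after quality control in 15 clusters assigned by the authors, of which 12 clusters with 664 cells were PVH types and 3 clusters with 42 cells (clusters 5, 6 and 11) were not.

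The plate was the replicate, and unique molecular identifiers (UMIs, counted copies) were summed over the cells of a cluster on a plate where it had at least 3 cells. Levels are given as CPM, the share of such a sum's UMIs scaled to 1e6, as mean ± SD over plates. The primer chemistry counts transcript ends, so a CPM was not divided by gene length. By their peptides, cluster 1 led in *Oxt* (66959 CPM), clusters 2, 3 and 4 in *Avp* (69364, 46024 and 50763 CPM), clusters 7 and 8 in *Sst* (14291 and 9691 CPM), clusters 9 and 15 in *Trh* (2628 and 1512 CPM) and cluster 14 in *Penk* (1274 CPM). Cluster 12 held *Oxt* (12960 CPM) with *Reln* (191 CPM), and cluster 10 held *Crh* (1743 ± 805 CPM) with *Avp* (2097 ± 2814 CPM). Cluster 13 held *Gad2* (411 ± 200 CPM) with *Crh* (465 ± 735 CPM), *Pdyn* (375 ± 122 CPM) and *Trh* (365 ± 214 CPM) over 3 plates. *Crh* was also found in cluster 14 (522 ± 236 CPM). Neuronal *Tubb3* was detected in 662 of 664 PVH cells and neuronal *Rbfox3* in 489. The astrocyte markers *Aqp4* and *Slc1a3* were found in 5 and 16 cells. *Mog*, *Cx3cr1* and *Cldn5* of oligodendrocytes, microglia and endothelium were found in none. Other markers of these cell types were found, with *Mag* in 48 cells, *Aif1* in 5 and *Pecam1* in 53.

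Total UMIs per cell ran from 50646 to 1078101 with a median of 128672, and the median per plate was 188177 to 283709 on the 4 plates with the prefix Q against 69514 to 127829 on the 6 plates with the prefixes AL and JM. Clusters were spread unevenly over these batches, with 40 of the 42 cells of cluster 8 on Q plates and none of clusters 4, 12 and 13. *Oxt* UMIs were found in 656 of 664 PVH cells and in 25 of 25 cells of the GABAergic cluster 6, so a low level of a gene abundant on the same plate can be free RNA or barcode exchange, and this was not tested.

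The most abundant members were found in nearly all cells. *Snap47*, a SNAP25 relative, was the most abundant member at 2226 CPM over all sums, 29th of all genes, with a UMI in 664 of 664 PVH cells. *Rab3a*, the vesicle GTPase, followed at 970 CPM (663 cells), then *Snap25* at 717 CPM (652 cells), the synaptotagmins *Syt11* at 558 CPM and *Syt4* at 549 CPM, and the vesicle glycoprotein *Sv2a* at 429 CPM. *Vamp2*, the main vesicle SNARE of neurons, stood at 247 CPM (650 cells). In other families the most abundant member was *Syn2* (304 CPM), *Stx7* (186 CPM), *Rims3* (104 CPM), *Cadps* (101 CPM) and *Unc13a* (71.6 CPM). Of the complexins, *Cplx1* led in the mean over sums (92.7 against 83.9 CPM for *Cplx2*), while over all cells *Cplx2* led with 133 against 70.7 CPM and was found in 529 PVH cells against 364.

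In the 254 wells outside the set of cells *Snap47* took 755 CPM of the UMIs, against 2492 CPM over the cells. In build GRCm38 the gene lies at chr11:59407134-59451186 and shares its position with *Jmjd4* on the opposite strand, and whether the counting used strand is not given in the sources used here.

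Of the 73 members, 64 had enough counts for the tests. The 9 that had not were *Cplx3*, *Cplx4*, *Stx11*, *Stx19*, *Syt8*, *Syt15*, *Unc13d*, *Vamp5* and *Vamp8*. *Stx11* and *Syt8* had no UMI in 664 cells (3 counts of the total would be 0.452% of cells with a UMI), and the other 7 were found in 1 to 22 cells. The complexin pair *Cplx3* and *Cplx4*, known from retinal ribbon synapses, was found in 2 cells and in 1 cell.

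**Figure D1:**
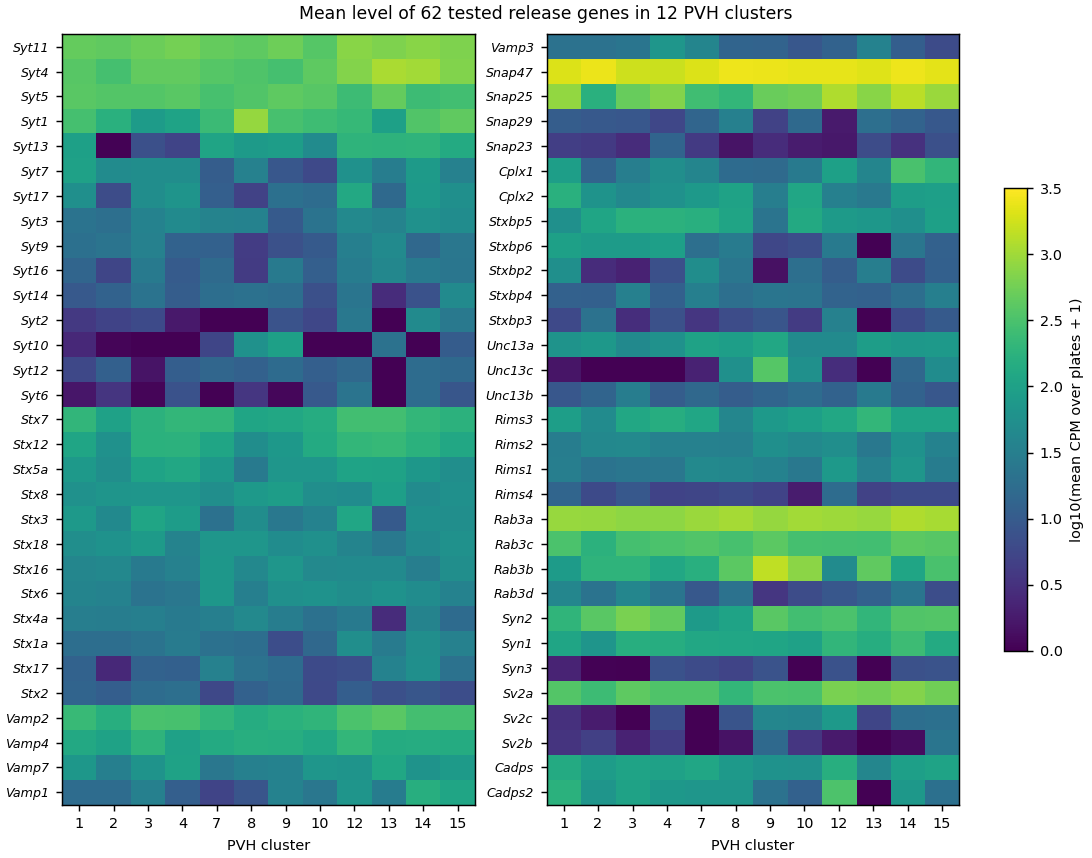
Mean CPM over plates (colour, log10 of CPM + 1) of 62 of the 64 tested members (rows, grouped by family and ordered by level) in the 12 PVH clusters (columns). *Snap47* and *Rab3a* are bright in every cluster, while *Syt13* is dark in clusters 2, 3 and 4, *Unc13c* is bright in cluster 9 and *Cadps2* is dark in cluster 13.

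The members were next compared over the 12 PVH clusters, with no test between families. In a joint edgeR quasi-likelihood fit over 73 sums with plate as a block, 27 of the 64 tested members varied across clusters at a Benjamini-Hochberg adjusted p under 0.05, beside 21.2% of all 13082 genes tested. The clusters had been drawn from the same cells' genes, so these p-values measure size against the spread between plates and are not independent evidence. Of the synaptotagmins, 10 of 15 *Syt* genes varied, and so did 4 of 6 *Stxbp*, 3 of 3 *Sv2* and 2 of 2 tested *Cplx* genes. Of the core SNAREs, 1 of 13 *Stx* genes, 1 of 5 *Vamp* genes (*Vamp1*) and 2 of 4 *Snap* genes (*Snap25* and *Snap47*) did. None of the 4 *Rims* genes passed, in edgeR or DESeq2 and also at an unadjusted p under 0.05, and 1 of 3 *Unc13* genes (*Unc13c*) did. Of the other families, 1 of 4 Rab3 genes (*Rab3b*), 1 of 3 *Syn* genes (*Syn2*) and 1 of 2 *Cadps* genes (*Cadps2*) passed. The 4 *Rims* genes had adjusted p between 0.492 and 0.979, and a p over the threshold does not show that they were level.

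The summed level of all 73 members ran from 7669 ± 627 CPM in cluster 2 (SD, n = 5 plates) to 13072 ± 1599 CPM in cluster 14 (n = 8). The *Oxt* and *Avp* clusters 1 to 4 stood at 7669 to 9293 CPM, and in them 7 peptide genes took 5.21% to 7.02% of all UMIs. In the other 8 clusters the sum was 8287 to 13072 CPM and the 7 peptides took 0.145% to 1.64%.

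Clusters 1 to 4, whose mean *Oxt* or *Avp* level was 46024 CPM or more, differed from the other 8 PVH clusters in 13 of 64 members. The other 8 include cluster 12, which also led in *Oxt*, and cluster 10, which held *Avp* beside *Crh*. Higher were *Stxbp6*, *Cadps2*, *Rab3d*, *Syt7*, *Stx3*, *Syn2*, *Stxbp5* and *Syt5*, 8 members, beside 7.91% of all genes called higher. Lower were 5 members, among them *Syt13*, *Rab3b*, *Syt1* and *Syt4*, beside 2.71% of all genes. The median log2 fold change was −0.06 over the members and 0.15 over all genes, so a change in a member has to be read against that shift. At an unadjusted p under 0.05 there were 21 members. With cluster 12 moved to the side of clusters 1 to 4 there were again 8 higher and 5 lower, and *Syt5* was no longer called (0.16, adjusted p = 0.547).

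*Stxbp6* (amisyn), a protein that binds syntaxin and SNAP25 through a SNARE-like coil, was highest in clusters 1 to 4. It ran from 74.3 to 119 CPM on the 10 plates of cluster 1, with a median of 96.7. In cluster 2 it was 101, 42.4, 48.8, 65.9 and 150 CPM on plates Q5, Q6, Q7, Q8 and JM8. In cluster 3 it was 90.3, 92.3, 43.2, 120 and 67.6 CPM on plates AL5, AL6, JM6, JM7 and JM8, and in cluster 4 it was 51.1, 62.6, 97.3, 52.0 and 207 CPM on AL5, AL6, JM5, JM6 and JM8. All 25 sums of these clusters held it. In the other 8 clusters the mean was 27.2 CPM or less, and cluster 13 had no UMI on 3 plates. The joint fit gave a log2 fold change of 4.14 ± 0.50 (SE, adjusted p = 3.6e-10), 3.52 within the AL and JM plates and 6.21 within the Q plates. The pooled cells of clusters 1 to 4 were higher on 10 of 10 plates, by 2.99 ± 0.24 on the log2 scale.

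*Cadps2*, a CAPS protein that primes dense-core vesicles, was highest in the *Oxt* clusters. In cluster 12 it was 333, 288, 442, 280, 263 and 369 CPM on plates AL5, AL6, JM5, JM6, JM7 and JM8. In cluster 1 it ran from 89.4 to 245 CPM with a median of 155, and in the *Avp* clusters 2, 3 and 4 the means were 66.4, 103 and 71.5 CPM. Cluster 13 had no UMI of it on 3 plates. It was higher in clusters 1 to 4 than in the other 8, which include clusters 12 and 13. The joint fit gave a log2 fold change of 2.56 ± 0.53 (adjusted p = 0.000342), while the mean was 102 against 73.5 CPM. With the cells of each side pooled it was higher on 8 of 10 plates, by 1.32 ± 0.35 on the log2 scale. In the joint fit with each cell thinned to 63046 UMIs the value was 1.36, still called. Its paralog *Cadps* did not pass in the joint fit without thinning (0.42 ± 0.25, adjusted p = 0.363).

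*Rab3d*, a Rab3 GTPase of secretory granules in endocrine and exocrine cells, was a low-abundance member that was higher in clusters 1 to 4. Its mean there was 20.6 to 39.5 CPM against 2.63 to 21.8 CPM in the other 8, with a log2 fold change of 2.26 ± 0.58 (adjusted p = 0.00388). *Syt7*, a high-affinity calcium sensor, was 98.3 ± 20.9 CPM in cluster 1 (n = 10) and 48.0 to 51.8 CPM in clusters 2 to 4. In the others it ran from 4.97 CPM in cluster 10 to 79.5 CPM in cluster 14, and its log2 fold change was 1.61 ± 0.41 (adjusted p = 0.00319). *Stx3*, a syntaxin of the plasma membrane and dendrites, differed by 1.35 ± 0.37 on the log2 scale (adjusted p = 0.00794), although its highest mean, 115 CPM, was in cluster 12. *Rab3d* and *Syt7* were higher on 10 of 10 plates and *Stx3* on 9 of 10 when the cells of each side were pooled.

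The transcription start regions of the members that were called higher in clusters 1 to 4 by both this fit and the pooled one below are shown for the 4 that have a RefSeq entry in the table used here. Each is 300 bases, 250 before and 50 after the annotated start, on the gene's strand and in build GRCm38.p6, and capitals mark a GC box or a TATA box, read on both strands. The GC box was searched as GGGCGG. The letters searched for the TATA box were TATAAA.
*Stxbp6* (chr12:45074434-45074733, minus strand): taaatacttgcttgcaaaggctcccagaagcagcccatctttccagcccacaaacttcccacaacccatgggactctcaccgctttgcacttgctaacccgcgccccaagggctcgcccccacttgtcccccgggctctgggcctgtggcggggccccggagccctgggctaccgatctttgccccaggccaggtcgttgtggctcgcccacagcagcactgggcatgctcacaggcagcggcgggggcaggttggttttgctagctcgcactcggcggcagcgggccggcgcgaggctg
*Cadps2* (chr6:23839372-23839671, minus strand): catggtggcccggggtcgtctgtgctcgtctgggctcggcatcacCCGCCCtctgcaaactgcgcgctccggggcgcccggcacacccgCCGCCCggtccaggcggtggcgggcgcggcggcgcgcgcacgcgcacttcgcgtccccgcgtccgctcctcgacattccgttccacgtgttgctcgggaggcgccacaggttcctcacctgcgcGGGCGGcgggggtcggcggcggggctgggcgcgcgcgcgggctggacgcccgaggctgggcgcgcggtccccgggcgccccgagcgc
*Rab3d* (chr9:21918134-21918433, minus strand): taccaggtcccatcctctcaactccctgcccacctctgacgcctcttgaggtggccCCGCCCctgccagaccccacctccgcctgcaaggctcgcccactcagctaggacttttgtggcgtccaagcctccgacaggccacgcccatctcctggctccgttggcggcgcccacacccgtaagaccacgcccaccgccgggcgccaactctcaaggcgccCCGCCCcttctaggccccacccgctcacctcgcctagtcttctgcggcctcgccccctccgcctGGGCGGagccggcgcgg
*Stx3* (chr19:11819354-11819653, minus strand): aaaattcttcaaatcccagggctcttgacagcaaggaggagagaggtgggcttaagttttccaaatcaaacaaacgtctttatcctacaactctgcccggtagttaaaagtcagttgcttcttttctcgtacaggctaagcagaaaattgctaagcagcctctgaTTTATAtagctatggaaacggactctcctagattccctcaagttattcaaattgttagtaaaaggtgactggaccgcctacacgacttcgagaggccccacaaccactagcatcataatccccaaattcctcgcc

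The *Stxbp6* region held neither motif, those of *Cadps2* and *Rab3d* held GC boxes, and that of *Stx3* held a TATA box. Over all 56 members with an entry, 43 held GGGCGG and 4 held TATAAA, beside 35.7% and 13.6% of 32851 promoters in the table. TGACGTCA was in 2 members, TGACTCA in 3 and TAATTA in 1, beside 1.79%, 5.20% and 5.29% of all promoters. A member with several promoters was counted if any of them matched, as for *Syn2* and *Syt1* with the GC box, while the percentages are over single promoters. The member counts and the percentages are therefore not like for like. A match is a run of letters and not a bound site.

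*Syt13*, an atypical synaptotagmin that lacks the calcium-binding residues of its relatives, was nearly missing from the *Avp* clusters. In cluster 2 it was 0, 0, 0.268, 0 and 0 CPM on plates Q5, Q6, Q7, Q8 and JM8, a single UMI in all. In cluster 3 it was 0.528 and 30.8 CPM on AL5 and AL6 and 0 on JM6, JM7 and JM8. In cluster 4 it was 20.7 CPM on JM5 and 0 on AL5, AL6, JM6 and JM8. The *Oxt* cluster 1 did not share this, with 48.2 to 149 CPM and a median of 91.9 over 10 plates, and cluster 12 held 187 ± 35.1 CPM (n = 6). The log2 fold change of −4.89 ± 0.45 for clusters 1 to 4 (adjusted p = 1.46e-14) was therefore carried by clusters 2, 3 and 4, and cluster 1 alone against the other 8 gave −0.08 (adjusted p = 0.960). Against the other clusters, clusters 2, 3 and 4 stood at −8.41 ± 1.13 (adjusted p = 1.1e-07), −3.60 ± 0.90 (adjusted p = 0.0162) and −3.89 ± 0.90 (adjusted p = 0.00907). Those calls were lost without 1, 6 and 5 of the plates in turn, with adjusted p up to 1, while the fit against the summed other clusters of each plate gave −9.91, −5.59 and −5.64 and called all 3.

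*Rab3b*, a Rab3 GTPase of regulated secretion, spanned a 30.8-fold range of cluster means. In cluster 9 it was 2056, 1738, 1007 and 1046 CPM on plates Q5, Q6, Q7 and JM8. In cluster 10 it ran from 489 to 1321 CPM on 7 plates with a median of 664, in cluster 1 from 49.1 to 131 CPM with a median of 79.5, and in cluster 12 from 9.16 to 93.3 CPM. Clusters 9 and 10 did not overlap clusters 1 and 12 on any plate. Clusters 1 to 4 were lower than the other 8 by −0.90 ± 0.17 on the log2 scale (adjusted p = 4.92e-05) and on 10 of 10 plates, with −1.92 within the Q plates and −0.50 within the AL and JM plates, where the call was lost (adjusted p = 0.231).

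*Syt1*, the fast calcium sensor of synaptic release, averaged 161 CPM in clusters 1 to 4 and 349 CPM in the other 8 (log2 fold change −0.85 ± 0.22, adjusted p = 0.00575). On the Q plates alone the difference was 0.06, and cluster 1 alone against the other 8 gave 0.25. *Syt4*, a synaptotagmin of dense-core vesicles, averaged 401 against 628 CPM (−0.50 ± 0.13, adjusted p = 0.00416) and was lower on 10 of 10 plates. *Syn2* (0.85 ± 0.15, adjusted p = 8.26e-06) and *Stxbp5*, the syntaxin-binding protein tomosyn (0.81 ± 0.22, adjusted p = 0.00573), were not called for cluster 1 alone against the other 8, which gave −0.000417 and −0.23, and cluster 1 held 196 CPM of *Syn2* against 402, 616 and 448 CPM in clusters 2, 3 and 4. *Syt5*, a synaptotagmin of vesicles, averaged 382 against 340 CPM (0.36 ± 0.11, adjusted p = 0.0245) and lost its call without any of 6 plates.

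**Figure D2:**
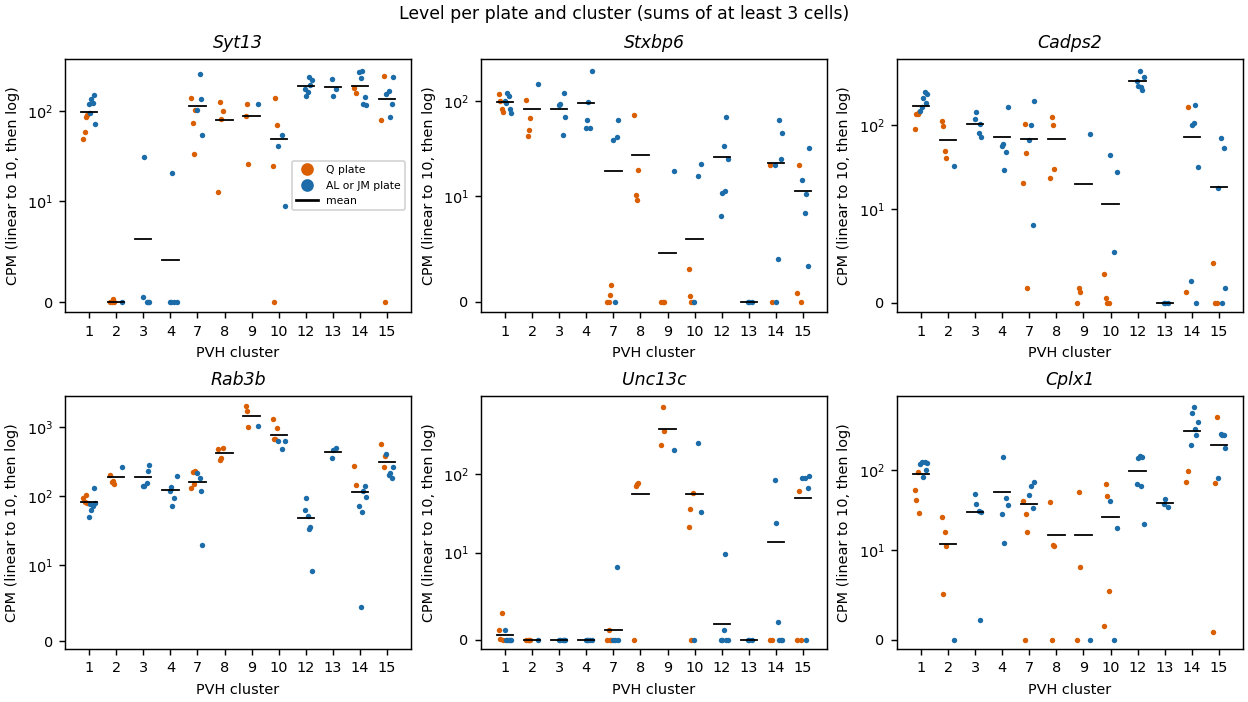
CPM per plate (vertical axis, linear to 10 and logarithmic above; points are plates and short lines means) of *Syt13*, *Stxbp6*, *Cadps2*, *Rab3b*, *Unc13c* and *Cplx1* in the 12 PVH clusters, with Q plates and AL or JM plates in different colours. *Syt13* lies at or near 0 in clusters 2 to 4, *Stxbp6* is high in clusters 1 to 4, and *Unc13c* is high in cluster 9, between 203 and 705 CPM.

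The joint fit gives each cluster equal weight on a log scale, and where a gene had no UMI in a cluster that it averages over, the estimate had no bound. This held for 3711 of 13082 genes and for 11 of 64 members. In this contrast 5 members had a standard error over 5, and none of them was called. *Unc13c*, a Munc13 priming protein, had 0 UMIs in clusters 2, 3 and 4 and 0.554 CPM in cluster 1, and its adjusted p was 1. It was called lower with sums of at least 5 cells, with thinned cells, on the Q plates alone and in DESeq2, which also called *Sv2c* lower. When the cells of clusters 1 to 4 and those of the other 8 were pooled into 2 sums per plate, 9 of 62 members were higher beside 7.53% of genes, and 13 were lower beside 6.51%. Of these, 6 and 5 were also called in the joint fit. The 8 lower members that the joint fit did not call included *Unc13c* (−6.75 ± 0.66), *Syt10* (−5.50 ± 0.81), *Sv2c* (−4.20 ± 0.61), *Syt6* (−3.77 ± 0.97), *Vamp1* (−1.61 ± 0.29), *Syn1* (−0.35 ± 0.11) and *Sv2a* (−0.30 ± 0.09). The 3 higher ones were *Stxbp2* (1.22 ± 0.23), a Munc18 protein, *Cplx2* (0.99 ± 0.16) and *Cadps* (0.51 ± 0.11). In that fit *Syt13* was −0.91 ± 0.13, and *Syn2* (0.25, adjusted p = 0.287) and *Stxbp5* (−0.02, adjusted p = 0.956) were not called. *Stxbp6* (2.99 ± 0.24) and *Cadps2* (1.32 ± 0.35) were smaller there than in the joint fit, which averages over cluster 13 with no UMI of either. The part of cluster 13 in this was not tested. The pooled sums are led by cluster 1, which had 221 cells against 53, 36 and 22 in clusters 2, 3 and 4.

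**Figure D3:**
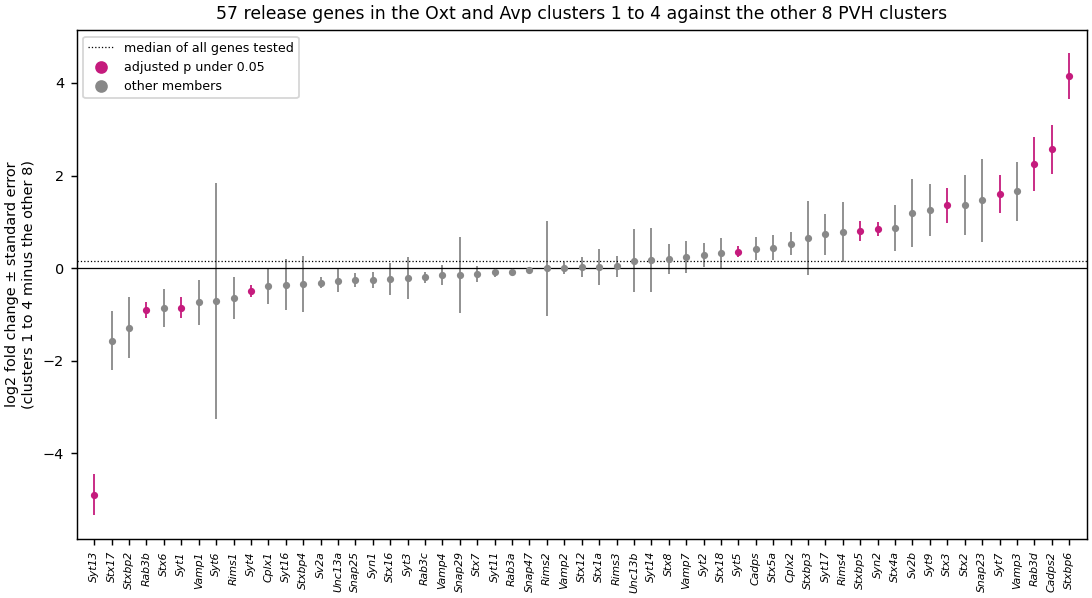
Log2 fold change of clusters 1 to 4 minus the other 8 PVH clusters (vertical axis, points, with bars of 1 SE) for 57 of the 59 members whose standard error was under 5, ordered along the horizontal axis, with called members in colour and a dotted line at the median of all genes. *Stxbp6* lies farthest right at 4.14 and *Syt13* farthest left at −4.89. The 5 members with a larger error are *Unc13c*, *Syt10*, *Sv2c*, *Syn3* and *Syt12*.

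Each of the 12 clusters was also set against the mean of the other 11. Over the 12 contrasts members were called higher 50 times beside 2.81% of all gene contrasts, and lower 12 times beside 0.676%. Over all genes, those with no UMI in at least 1 cluster made 2806 of the 4404 higher calls and 113 of the 1061 lower calls. Set against the summed other clusters of the same plate, where a gene with no UMI in the cluster itself still had no bounded estimate, members were called higher 29 times beside 1.05% and lower 42 times beside 2.24%, with 25 and 9 calls shared by both fits.

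Cluster 1, the main *Oxt* cluster, had 12 members higher and 1 lower, beside 11.7% of genes called in either direction. Higher were the CAPS proteins *Cadps* and *Cadps2*, the complexins *Cplx1* and *Cplx2*, *Rab3d*, *Snap25*, *Stxbp2*, *Stxbp6*, *Syt5*, *Syt7*, *Syt13* and *Syt17*, while *Rab3b* was lower. Against the summed other clusters of the plate the balance was different, with 10 members higher and 10 lower. The lower ones there were *Rab3b*, *Stxbp5*, *Sv2c*, *Syn2*, *Syt3*, *Syt4*, *Syt6*, *Syt10*, *Unc13c* and *Vamp1*. *Stxbp2* was 54.5 ± 19.6 CPM (n = 10, from 18.3 to 80.8) and 3.82 ± 0.61 above the others on the log2 scale (adjusted p = 1.67e-06). *Cplx2* was 164 ± 33.6 CPM, 1.77 ± 0.28 above (adjusted p = 1.73e-06). The *Syt13* call reflects its near absence from clusters 2 to 4 in the log average, since its mean was 97.2 CPM against 93.4 CPM elsewhere and it was higher on 3 of 10 plates. The higher calls of *Syt13* in clusters 7, 12, 14 and 15, given below, were made against averages that also include clusters 2 to 4. *Cplx1* was higher on 6 of 10 plates (1.23 ± 0.42, adjusted p = 0.0422) and not called against the summed others (0.25, adjusted p = 0.604). *Syt17* was not called against the summed others either (0.61, adjusted p = 0.280). The calls of *Cplx1*, *Cadps*, *Syt5* and *Syt17* were also lost in DESeq2, with RLE factors and with totals alone. Over all genes the median log2 fold change of cluster 1 was 0.42, and over members 0.22.

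The *Avp* clusters had few calls. Cluster 2 had *Stxbp6* and *Syn2* higher and *Syt13* lower beside 2.22% of genes, cluster 3 had *Syn2* higher and *Syt13* lower beside 1.64%, and cluster 4 had *Syt13* lower beside 1.05%. *Syn2*, a synapsin that tethers vesicles to each other and to actin, was 582, 540, 413, 652 and 891 CPM in cluster 3 on AL5, AL6, JM6, JM7 and JM8. That was 1.12 ± 0.25 above the others on the log2 scale (adjusted p = 0.00636), a call lost without JM8 (adjusted p = 0.181). *Stxbp6* in cluster 2 (3.64 ± 0.72, adjusted p = 0.000593) was 0.40 against the summed others of the plate and not called.

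The *Sst* clusters 7 and 8 differed from each other in the genes called. Cluster 7 had *Stxbp2* and *Syt13* higher and *Snap25*, *Syn2* and *Vamp1* lower, beside 5.05% of genes. *Syn2* was lowest there, at 28.2 to 183 CPM with a median of 63.6 over 8 plates, and 1.90 below the others on the log2 scale (−1.90 ± 0.26, adjusted p = 6.48e-08). *Snap25* was 264 ± 144 CPM against 707 CPM elsewhere. Cluster 8 had *Syt1* and *Unc13c* higher beside 0.711% of genes. *Syt1* was 674, 1111, 690 and 1059 CPM on plates Q5 to Q8, 2.17 ± 0.41 above the others (adjusted p = 0.00184), and 1.26 against the summed others of the plate (adjusted p = 0.0586). *Unc13c* was not called in DESeq2 or against the summed others (0.39, adjusted p = 0.938). All sums of cluster 8 were from Q plates, on which *Syt1* was also higher within cluster 1, as given below. The difference between clusters 7 and 8 was not itself tested.

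The *Trh* cluster 9 had the highest *Unc13c* and *Rab3b*. *Unc13c* was 232, 705, 354 and 203 CPM on plates Q5, Q6, Q7 and JM8, while clusters 2, 3, 4 and 13 had none and no other PVH cluster exceeded a mean of 56.5 CPM. It was 8.67 ± 1.07 above the others on the log2 scale (adjusted p = 3.55e-08), and 4.96 against the summed others of the plate. *Syt10*, a synaptotagmin linked to growth factor release, was also higher (96.9 ± 74.1 CPM), and *Stxbp5* was lower at 0, 46.98, 11.7 and 25.8 CPM (−2.38 ± 0.56, adjusted p = 0.00562). These 4 members stood beside 2.82% of genes, and the *Syt10* and *Stxbp5* calls were not made against the summed others. Cluster 15, the other *Trh* cluster, had 6 members higher, among them *Cplx1*, *Sv2b*, *Syt13*, *Unc13c* and *Vamp1*, beside 3.78% of genes. None of the 6 calls of cluster 15 was made against the summed others of the plate.

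Cluster 10, with *Crh* and *Avp*, had *Rab3b*, *Sv2c* and *Unc13c* higher and *Syt11* lower, beside 3.84% of genes. *Rab3b* was 1.70 ± 0.22 above the others on the log2 scale (adjusted p = 3.55e-08) and higher on 7 of 7 plates. Of the 4 calls only that of *Rab3b* was also made against the summed others of the plate, where *Unc13c* was −0.05 (adjusted p = 0.988), *Sv2c* 1.99 (adjusted p = 0.440) and *Syt11* −0.61 (adjusted p = 0.0977). Cluster 12, with *Oxt* and *Reln*, had *Cadps2*, *Snap47*, *Sv2c*, *Syt13* and *Syt17* higher and *Rab3b* lower, beside 2.33% of genes. *Sv2c*, the SV2 glycoprotein with the most restricted pattern in the brain, was 62.7 to 95.9 CPM there on 6 plates with a median of 78.1, against a mean of 12.1 CPM elsewhere (5.06 ± 0.97, adjusted p = 0.000547). *Rab3b* was 2.12 below the others (−2.12 ± 0.33, adjusted p = 1.09e-05). Cluster 13, with 16 cells, had no call in the edgeR fit beside 0.527% of genes, with 4 members above and 6 below at an unadjusted p under 0.05, and DESeq2 called *Rab3b* higher and *Cadps2* and *Stxbp6* lower. Against the summed others of its plates *Cadps2*, *Stxbp6*, *Stx3* and *Snap25* were lower and *Rab3b* and *Syt4* higher.

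The *Penk* cluster 14 had 14 members higher and 2 lower, beside 6.12% of genes. Among the higher were the SNAREs *Snap25*, *Snap47* and *Vamp1*, with *Cplx1*, *Rab3a*, *Sv2a*, *Syn1* and the synaptotagmins *Syt2*, *Syt4*, *Syt6*, *Syt11* and *Syt13*, while *Rab3b* and *Syt5* were lower. *Syt1*, *Vamp2* and *Unc13a* were not called there. *Cplx1* ran from 70.7 to 600 CPM on 8 plates with a median of 297, 2.75 ± 0.46 above the others (adjusted p = 1.41e-05). Its 2 lowest plates, at 70.7 and 96.3 CPM, were the 2 Q plates. *Sv2a* was 718 ± 276 CPM against 391 CPM elsewhere. Of the 16 calls, those of *Rab3b*, *Snap25*, *Snap47*, *Syt2*, *Syt6* and *Vamp1* were not made against the summed others of the plate.

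Pairs of paralogs, related genes of the same family, were compared as the share of their summed UMIs, averaged over plates and with no test. *Cplx1* took 10.2 ± 9.29% of *Cplx1* and *Cplx2* in cluster 8 and 76.7 ± 9.27% in cluster 12. All sums of cluster 8 were from Q plates and all of cluster 12 from AL and JM plates, so cluster and batch cannot be told apart in this pair of shares. Within cluster 1 *Cplx1* was 55.7 ± 28.4 CPM on Q plates and 112 ± 18.0 CPM on the others, with *Cplx2* at 179 ± 23.4 and 154 ± 37.4 CPM, and neither passed the edgeR test between batches, while DESeq2 called *Cplx1* lower on Q plates. *Vamp1* took 3.35 ± 3.20% of *Vamp1* and *Vamp2* in cluster 4 and 32.9 ± 18.5% in cluster 14. *Syn1* took 14.6 ± 6.68% of *Syn1* and *Syn2* in cluster 2 and 57.7 ± 24.9% in cluster 7. The CAPS proteins ran from 31.4 ± 8.13% *Cadps* in cluster 12 to 100% in cluster 13, which rests on 34 UMIs of the pair. *Syt4* took 35.2 ± 6.81% of *Syt4* and *Syt11* in cluster 9 and 63.1 ± 4.32% in cluster 13. *Rims1* took 26.8 ± 29.1% of *Rims1* and *Rims2* in cluster 9 and 61.0 ± 23.6% in cluster 12. The sums of cluster 9 were from Q5, Q6, Q7 and JM8, and clusters 12 and 13 had none on Q plates. Cluster and batch are thus largely mixed in these shares too. Within cluster 1 *Syt4* was lower on Q plates (−0.93 ± 0.25 on the log2 scale), while *Syt11* was not called (−0.08 ± 0.17). One member kept the larger mean share in every PVH cluster in other pairs, with *Snap25* at 98.0% to 99.9% of *Snap25* and *Snap23*, *Sv2a* at 96.2% to 100% of *Sv2a* and *Sv2b*, *Syt1* at 88.3% to 100% of *Syt1* and *Syt2*, and *Rab3a* at 67.5% to 83.8% of *Rab3a* and *Rab3c*.

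**Figure D4:**
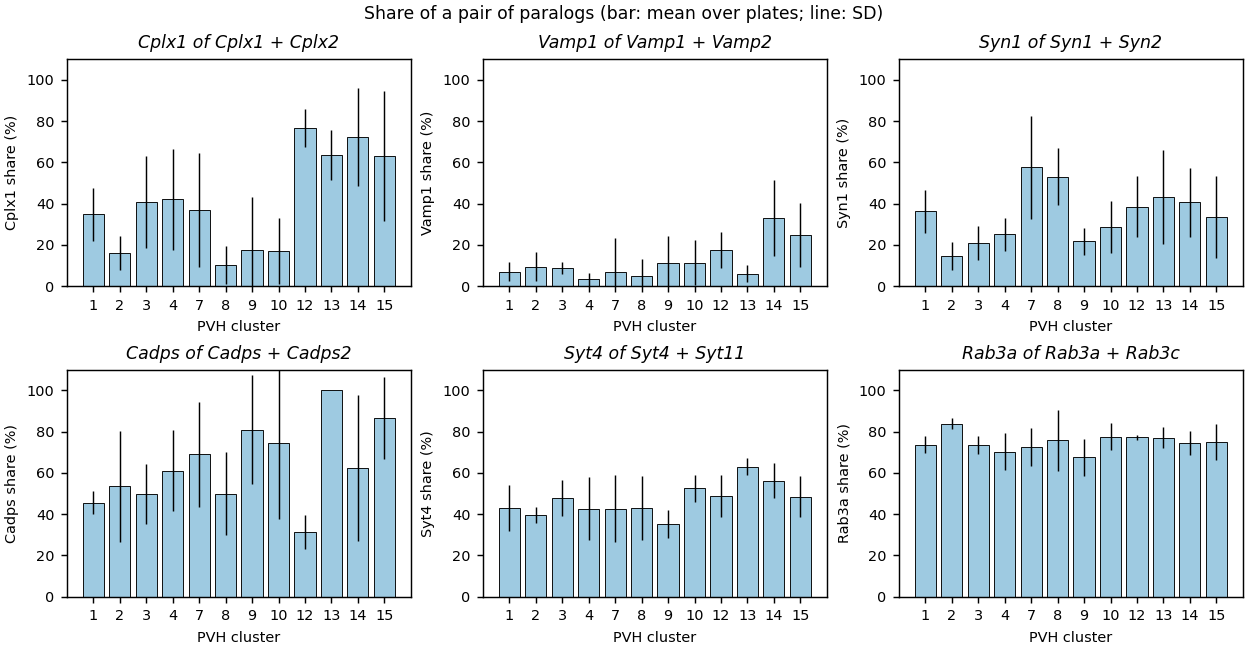
Share of the first paralog in the summed UMIs of 6 pairs (vertical axis, percent; bars are means over plates and lines 1 SD) in the 12 PVH clusters. *Cplx1* ranges from 10.2% in cluster 8 to 76.7% in cluster 12, while *Rab3a* stays between 67.5% and 83.8%.

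The GABAergic cluster 6 was not counted among the PVH types and served as a contrast, with *Gad2* at 857 CPM, *Slc17a6* at 0 and 25 cells. The PVH marker *Sim1* was found in 1 of its cells, and the position of the cells was not measured. Against the mean of the PVH clusters 4 of 64 members were higher and none lower, beside 1.39% and 1.04% of genes. At an unadjusted p under 0.05 there were 12 higher and 3 lower, and DESeq2 called 1 member lower, *Stx2*. *Syt13* was 2.27 ± 0.48 above on the log2 scale (adjusted p = 0.0015). That log average includes clusters 2, 3 and 4, in which *Syt13* was nearly missing, and their part in the value was not tested. *Syt1* was 1023, 1019, 1112, 475 and 1384 CPM on Q5, Q6, Q7, JM6 and JM8, 1.90 ± 0.33 above (adjusted p = 0.000116). *Rab3b* was 1.54 ± 0.26 above (adjusted p = 2.32e-05), and *Cplx2* 1.71 ± 0.41 above (adjusted p = 0.0077), a call lost without 2 of the plates in turn.

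Within cluster 1, which was on all 10 plates, the machinery differed by plate prefix, Q against AL or JM. On Q plates 3 of 58 members were higher beside 6.56% of genes and 9 were lower beside 4.51%. The endosomal syntaxin *Stx7* was 74.2 ± 23.8 CPM on 4 Q plates and 282 ± 37.5 CPM on the other 6 (−1.70 ± 0.20, adjusted p = 3.94e-05). *Snap25* was 464 ± 190 against 1115 ± 138 CPM (−1.05 ± 0.19, adjusted p = 0.00103), and *Vamp2* 138 ± 16.3 against 290 ± 25.1 CPM (−0.85 ± 0.15, adjusted p = 0.00103). The others lower were *Vamp7*, *Stx12*, *Syt4*, *Sv2a*, *Stx3* and *Vamp4*, between −1.31 and −0.65 on the log2 scale. *Syt1* was 415 ± 106 against 210 ± 80.0 CPM (1.20 ± 0.25, adjusted p = 0.00377), *Snap47* 2618 ± 238 against 1664 ± 368 CPM (0.87 ± 0.16, adjusted p = 0.00111), and *Rab3a* 974 ± 150 against 848 ± 65.5 CPM (0.42 ± 0.13, adjusted p = 0.0438). The *Rab3a* call was lost without any of 8 plates in turn (adjusted p up to 0.144), with RLE factors, with totals alone and with thinned cells, and the *Vamp4* call without any of 7 plates. Depth and plate prefix changed together, no plate is tied to an animal by the labels, and these cannot be told apart. Scaled by totals alone, 2 members were higher and 13 lower, and the share of all calls that were higher fell from 59.3% to 35.8%.

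*Snap25* was the 1 member of 65 called for a difference between clusters 1 to 4 and the other 8 that changed with the batch, beside 0.0771% of genes. At an unadjusted p under 0.05 there were 18 members. In simulated counts this term recovered 2% of genes changed 2-fold and 22% of those changed 8-fold. The lack of a call therefore does not show that a member's difference was the same in both batches. The log2 ratio of the pooled sums was 0.67, 0.23, 0.38 and 0.65 on plates Q5 to Q8. It was −0.26, −0.69, −0.53, −0.27, −0.26 and −0.42 on AL5, AL6, JM5, JM6, JM7 and JM8. All 4 Q plates were above 0 and all 6 others below, with a difference of 0.93 ± 0.12 (adjusted p = 0.0100). The other clusters were not the same mixture on both sets of plates, and the part of that mixture in the result was not tested.

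**Figure D5:**
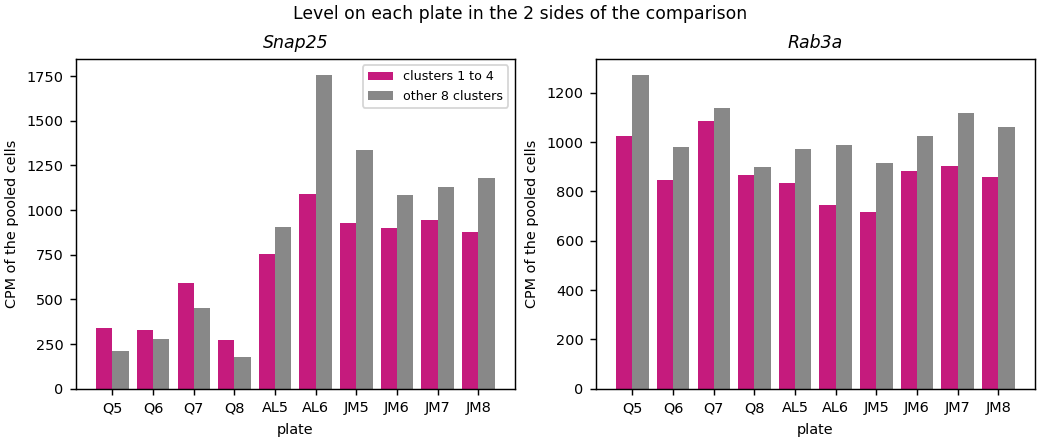
CPM (vertical axis, bars from 0) of *Snap25* and *Rab3a* on each of the 10 plates (horizontal axis) in the pooled cells of clusters 1 to 4 and of the other 8 PVH clusters. The *Snap25* bar of clusters 1 to 4 is the taller on the 4 Q plates and the shorter on the 6 AL and JM plates, while that of *Rab3a* is the shorter on all 10.

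Other genes of release were counted from 3 lists. Of 25 docking and active zone genes 22 were tested, and in clusters 1 to 4 *Sytl5* (4.01 ± 0.84), *Doc2g* (2.40 ± 0.82) and *Pclo* (0.68 ± 0.21) were higher and *Doc2b* (−3.14 ± 0.92) and *Rph3a* (−2.97 ± 0.39) lower. *Rph3a* encodes rabphilin, which binds Rab3, and averaged 12.1 against 78.5 CPM. Of 30 vesicle membrane and recycling genes 24 were tested, with *Sncg* higher (1.88 ± 0.46) and *Amph* (−0.95 ± 0.26) and *Dnajc5* (−0.42 ± 0.14) lower. Of 14 dense-core vesicle genes, all tested, 6 were higher, among them the prohormone convertase *Pcsk1* (2.12 ± 0.31) and the carboxypeptidase *Cpe* (0.91 ± 0.09), and 1 was lower. That was the granin *Scg2*, at 375 CPM against 5443 CPM (−3.78 ± 0.22, adjusted p = 1.09e-19). These counts stand beside 7.91% of all genes called higher and 2.71% called lower. Median log2 fold changes were −0.18, −0.04 and 0.44 for the 3 lists, beside 0.15 over all genes.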

How the data were processed

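Single cells were picked by hand from dissociated PVH (50 min in pronase) and read by a 3′-barcoded method with UMIs. The authors deposited raw counts of UMIs per gene and cell, and a table of the cells kept with their clusters. Per the labels' processing notes, Trimmomatic 0.36, STAR 2.5.3a and build GRCm38.p5 were used. The counter, its annotation and strand, and the correction of UMIs are not given in the sources used here. The labels name no animal, so p-values measure the spread between plates.

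Counts were summed over the cells of a deposited cluster on a plate (at least 3 cells), giving 73 sums of the 12 PVH clusters. edgeR 4.0.16 in R 4.3.3 (TMM factors, filterByExpr, plate as a block, quasi-likelihood test, Benjamini-Hochberg over all genes tested, threshold 0.05) gave the main results, and DESeq2 1.42.0 an alternative. Fits were tested on simulated counts: for clusters 1 to 4 against the other 8, run on 12024 genes, 36% of genes changed 2-fold and 84% of those changed 8-fold were recovered, and for cluster 13, run on 12066 genes, 2% and 44%. Members, lists and named genes were chosen with earlier results of these data known. Named genes were the members called for clusters 1 to 4, the leading call of each cluster in each direction, and those called in the other comparisons. Motifs were searched in RefSeq promoters of GRCm38.p6. The members with no entry in the promoter table included *Cplx4*, *Rims2*, *Rims4*, *Snap25*, *Syn3*, *Syt4*, *Syt5*, *Syt7*, *Syt12*, *Syt13*, *Syt17*, *Unc13d*, *Vamp2*, *Vamp3* and *Vamp7*. No doublet caller was run on these hand-picked cells, and no 2 cells had identical counts. Python 3.11.15 with pandas 2.3.3 and matplotlib 3.10.9 made the sums and plots. Results of 2 tested members are not reported here, and counts include them.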

Additional observations from a re-analysis of the deposited data

Results flagged for a closer look

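*Syt13* had 1 plate that stood apart from the others in each of clusters 2, 3 and 4. In cluster 2 that was 0.268 CPM on Q7, a single UMI, with 0 on the other 4 plates. In cluster 3 it was 30.8 CPM on AL6, and in cluster 4 it was 20.7 CPM on JM5. Of the 27 groups of plates looked at, 3 had such a plate. A chance rate was not worked out for groups like these 3, in which most plates are at 0 and any plate above 0 stands apart. The count of 3 therefore cannot be set against chance.

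The *Snap25* difference between clusters 1 to 4 and the other 8 clusters changed with the set of plates by 0.93 on the log2 scale (Q minus AL and JM), above 0 on 4 of 4 Q plates and below 0 on 6 of 6 others. It was not called without the replicate block.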

How the results depend on the processing

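Members varying across clusters numbered 27, and 8 on the Q plates alone. Calls of a cluster against the others fell from 50 higher and 12 lower to 11 and 7 on the Q plates alone, and were 29 and 42 against the summed others of the plate, with 29 lower in DESeq2. For clusters 1 to 4, 8 members were higher and 2 on the Q plates alone. The 5 lower became 11 with DESeq2, 9 with totals alone, 3 without the replicate block, 3 on the Q plates alone, 13 with pooled cells and 1 for cluster 1 alone. For cluster 6, the 4 higher became 7 without a filter, 7 without the replicate block and 2 on the Q plates, and the 0 lower became 1 with DESeq2, without a filter and without the block. The 1 member called for a side difference that changed with batch became 5 with DESeq2, 2 without a filter, 2 with totals alone and 0 without the replicate block. On the AL and JM plates alone, where clusters 9 and 2 each had 1 sum (JM8), the share was 66.7% for *Rims1* in cluster 9 (26.8% over all its plates), 88.1% for *Rab3a* (83.8%) and 92.9% for *Snap25* (98.0%), both in cluster 2. Leaving out each plate in turn gave 25 to 31 varying, 43 to 53 higher and 7 to 13 lower for single clusters, 7 to 10 and 4 to 7 for clusters 1 to 4, 3 to 4 and 0 to 0 for cluster 6, 2 to 3 and 6 to 10 between batches, and 1 to 2 for the side difference.

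The direction turned for *Syt1* (0.064) on the Q plates alone, for *Stxbp5* with pooled cells (−0.024), and for cluster 1 alone in *Stxbp5* (−0.23), *Syn2* (−0.000417) and *Syt1* (0.25). The causes of these changes were not tested. Over all genes, 74.5% of calls for clusters 1 to 4 were higher, 66.6% with RLE factors, 60.7% with totals alone and 53.6% with pooled cells. For cluster 6 the share was 57.1%, and 67.8% with RLE factors. Of 64 members 11 had no UMI in at least 1 cluster, and the part of depth in this was not tested. Intervals and floors would cover counting error only.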
